A study of Homo sapiens with 21 samples.

Results

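The data described here are the 4 messenger RNA libraries of HK-2 cells that received only vehicle, out of 21 samples in the series, and they show which genes this line transcribes without the drug. HK-2 is a line of human kidney proximal tubule epithelium that was immortalised with the E6 and E7 genes of a human papillomavirus. The cells were grown in 15 cm dishes in serum-free keratinocyte medium with 5 ng/ml epidermal growth factor and pituitary extract from cattle (0.05 mg/ml), and at about 80% confluency they received 0.1% ethanol for 48 h. Polyadenylated RNA was sequenced. The rest of the series covers a drug treatment, small RNA and RNA bound to Argonaute proteins. All vehicle libraries of the mRNA set were taken, no treated library was used, and no comparison between treatments was made. Nothing in the labels ties the 4 libraries to separate cultures, and the spread between them may be technical.

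The proximal tubule reabsorbs most of what the glomerulus filters. Its cells carry a brush border of microvilli with peptidases, take up filtered protein through the receptors megalin (LRP2) and cubilin (CUBN), and move glucose, phosphate, amino acids and organic ions through carriers of the SLC families, under transcription factors of the HNF4 and PAX groups among others. In culture, and after injury, such cells are known to lose part of this programme and to take on progenitor or mesenchymal traits. The papillomavirus proteins act on the cell cycle: E7 binds the retinoblastoma protein and frees the E2F factors, and E6 is known to raise telomerase transcription.

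Total counts were 7041604, 5366260, 4644613 and 4289120 in vehicle libraries 1 to 4. Levels are given as CPM, the counts of a gene when its library is scaled to 1000000 counts, after scaling by the trimmed mean of M values (TMM), as the mean ± SD over the 4 libraries. CPM counts reads without regard to transcript length, so a rank by CPM is a rank by reads, and levels of different genes are not compared as numbers of molecules. The coefficient of variation between libraries, estimated across 12569 genes, was 5.47% with edgeR's common dispersion and 9.24% with the median dispersion of DESeq2. Each pair of libraries differed by more than counting noise: chi-square divided by its degrees of freedom lay between 1.27 (libraries 2 and 3) and 3.63 (libraries 1 and 4), so none was counted as a duplicate.

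Of 23368 features in the table, 13866 reached a mean of 1 CPM and are called detected. Among features with a unique symbol this is 59.3%, which is the level against which each gene list below is read. A further 3831 had some counts but stayed under 1 CPM, and 5671 (24.3%) had no count in any library. A count of 0 over the 21341597 pooled counts allows a level of up to 0.141 CPM (3 counts), and this limit covers counting error only. In a bulk library a low level cannot tell few expressing cells from little RNA per cell.

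One gene stood far ahead of the rest. FN1, which encodes fibronectin, the matrix glycoprotein that integrins grip, measured 44326, 41155, 40112 and 38918 CPM in libraries 1 to 4. It alone took 4.11% ± 0.19 of all counts (SD, n = 4), and its lowest library exceeded the highest library of any other gene. Next came the nuclear long non-coding RNA MALAT1 at 5097 ± 381 CPM and SCD, the stearoyl-CoA desaturase that makes monounsaturated fatty acids, at 4775 ± 280 CPM. The 10 most-read genes held 7.73% ± 0.32 of the counts and the 100 most-read held 20.6% ± 0.52.

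Matrix, adhesion and secretory genes filled much of the list of 25 most-read genes. Basement membrane components were AGRN (agrin) at 4460 ± 171 CPM, COL4A2 (a chain of type IV collagen) at 2318 ± 198 CPM, LAMC1 at 2223 ± 134 CPM and LAMA5 at 2133 ± 63.2 CPM, the last a pair of laminin chains. SPP1, the secreted phosphoprotein osteopontin that injured tubules are known to make, was read at 3840 ± 148 CPM. LOXL2, which crosslinks collagen, stood at 3223 ± 203 CPM, and LTBP4, which holds latent TGF-beta in the matrix, at 2054 ± 71.9 CPM. These genes, ITGA3 (a laminin-binding integrin, 3352 ± 163 CPM) included, varied by a small fraction of their mean.

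Other entries serve the secretory and endosomal route or the cytoplasm. PSAP, the precursor of the saposins that help lysosomal lipid breakdown, was at 4088 ± 208 CPM, CALR, a chaperone of the endoplasmic reticulum, at 3350 ± 153 CPM, and P4HB, which forms disulfide bonds there, at 2322 ± 140 CPM. C3, the central complement component, was among them at 2944 ± 203 CPM, as were the membrane proteins APLP2 (3024 ± 144 CPM) and APP (2810 ± 173 CPM). Cytoplasmic genes included ENO1 (enolase, 2944 ± 251 CPM), EEF2 (the elongation factor of translation, 2421 ± 184 CPM), GAPDH (2054 ± 231 CPM) and the actin-binding FLNA (3231 ± 44.2 CPM) and MYH9 (2034 ± 98.3 CPM). IGFN1, a gene named for immunoglobulin-like and fibronectin domains, was sixth by reads at 3985 ± 339 CPM. The non-coding RNA NEAT1, which builds nuclear paraspeckles, stood at 2064 ± 189 CPM.

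**Figure D1:**
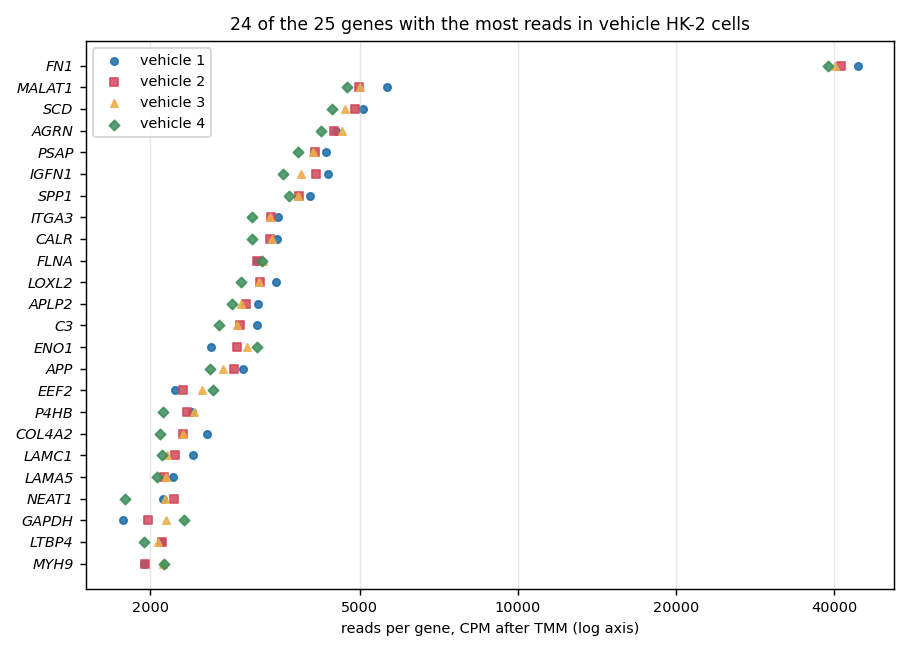
Level of 24 of the 25 genes with the most reads in vehicle HK-2 cells, in CPM after TMM on a log axis, with 1 point for each of the 4 libraries. FN1 lies apart at 38918 to 44326 CPM, and over the 25 genes library 4 holds the lowest value in 20.

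The brush border list of 26 genes was partly present: 12 (46.2%) were detected, beside 59.3% of all features. Another 9 had counts under 1 CPM and 5 had none. The uptake receptors were at or near 0. LRP2 had 1 count in all libraries together, and CUBN had 0.288, 0.745, 1.29 and 0.922 CPM from 16 counts. AMN, which carries cubilin to the surface, was nevertheless detected at 14.5 ± 1.74 CPM, and DAB2, the endocytic adaptor of megalin, at 16.9 ± 3.75 CPM.

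Surface peptidases split. ENPEP, the aminopeptidase that acts on angiotensin, measured 662, 621, 573 and 568 CPM, and GGT1, the gamma-glutamyltransferase that starts glutathione breakdown, measured 155, 158, 167 and 139 CPM. DPP4 was at 98.1 ± 8.88 CPM and MME (neprilysin) at 61.2 ± 5.42 CPM. Against these, ANPEP (0.592 CPM), ALPL (0.409 CPM) and DPEP1 (0.927 CPM) stayed under 1 CPM, and MEP1A, MEP1B, XPNPEP2 and FOLH1 had no count. Of the structural genes, EZR (ezrin, 370 ± 18.8 CPM) and the scaffold PDZK1 (57.4 ± 4.12 CPM) were read in every library, whereas VIL1 (villin, the actin bundler of microvilli) had 1 count in all.

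Of 40 proximal tubule carriers and tight junction genes, 19 (47.5%) were detected, 11 had counts under 1 CPM and 10 had none. Transcripts of glucose carriers were read. SLC5A2, the sodium-glucose cotransporter SGLT2, measured 38.3, 37.3, 46.0 and 36.6 CPM. The basolateral glucose exit carrier SLC2A2 measured 79.3, 81.1, 72.3 and 73.0 CPM. The bicarbonate exit carrier SLC4A4 (37.6 ± 5.28 CPM), the apical sodium-proton exchanger SLC9A3 (10.4 ± 1.07 CPM), the sodium pump subunit FXYD2 (33.1 ± 3.42 CPM) and the leaky junction protein CLDN2 (90.9 ± 15.2 CPM) were also read. None of the 40 reached 100 CPM.

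Several organic ion carriers that take up drugs had no count. SLC22A6 and SLC22A8, the organic anion transporters OAT1 and OAT3, had no count in any library, and neither had SLC22A2 (the cation carrier OCT2), SLC22A12 (the urate carrier URAT1) or SLC47A1. SLCO4C1, another organic anion carrier, was read at 65.4 ± 7.18 CPM. The phosphate carrier SLC34A1 measured 1.01, 1.30, 1.51 and 0.230 CPM and sat at the detection line, with a mean of 1.01 CPM that was 0.914 CPM without library 2 and 0.847 CPM without library 3. The water channel AQP1 was under the line in every library, at 0.144, 0.373, 0.645 and 0.691 CPM.

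Metabolic genes of the segment had the lowest share of the 3 proximal lists, with 10 of 25 detected, 8 under 1 CPM and 7 without a count. Of the gluconeogenic enzymes on the list, PCK1 had 3 counts, FBP1 had 1 count, and G6PC had none. MIOX, the myo-inositol oxygenase that is a kidney-enriched enzyme, was the exception in size at 186, 169, 155 and 140 CPM. ASS1 (argininosuccinate synthase, 38.3 ± 2.46 CPM), GPX3 (the secreted glutathione peroxidase, 32.5 ± 2.00 CPM) and UGT2B7 (a glucuronosyltransferase, 15.4 ± 1.71 CPM) were also read. Taking the 3 lists as 1, 41 of 91 genes (45.1%) were detected, beside 59.3% of all features, and 22 had no count.

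The regulators above these genes split as well. PAX8, which is needed to form nephrons, measured 853, 848, 861 and 823 CPM, so its libraries lay close together. HNF4A, which drives much of proximal tubule maturation, had no count in any library, and neither had PAX2, EMX2 or WT1. The related HNF4G was at 5.60 ± 0.941 CPM. SALL1 (530 ± 18.3 CPM), a factor of nephron progenitors, CITED2 (354 ± 32.5 CPM), a co-activator partner, IRX3 (107 ± 3.28 CPM) and LHX1 (43.4 ± 3.61 CPM) were read, and 19 of the 32 nephron factors were detected in all. That share, 59.4%, was near the level for all features.

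**Figure D2:**
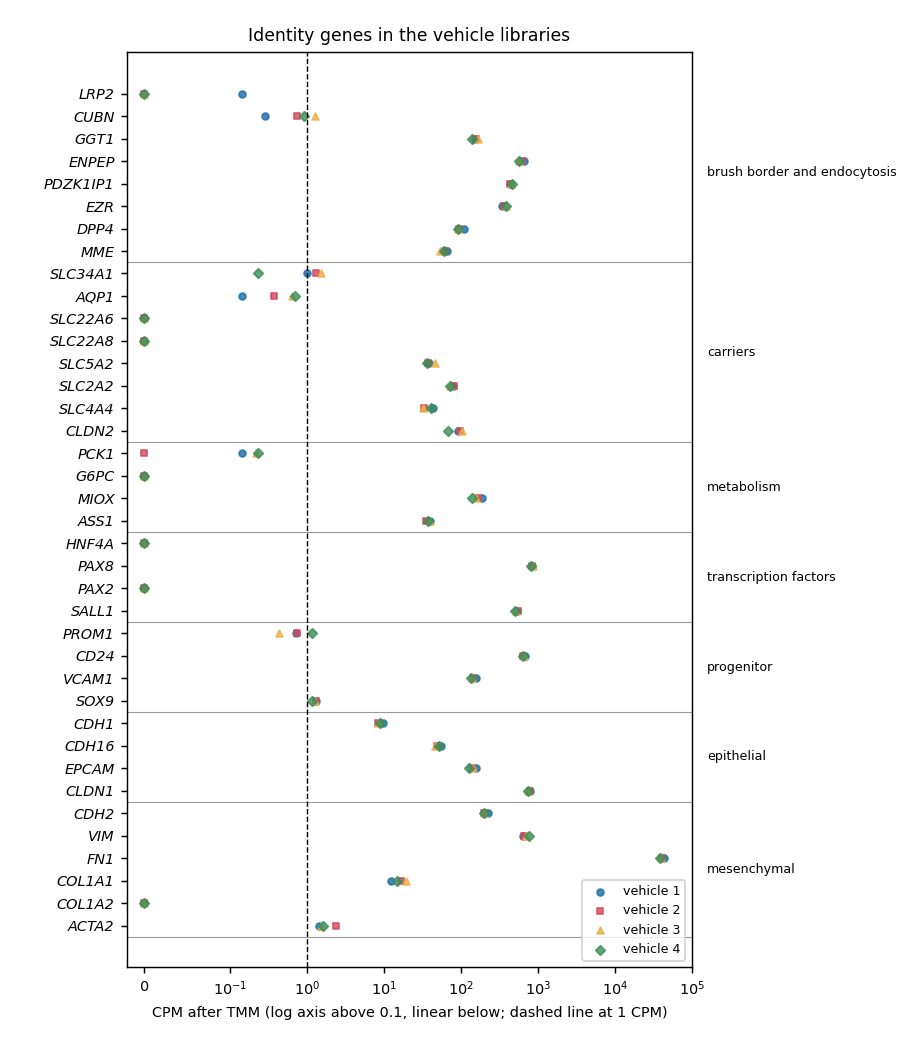
Level of 38 identity genes in each of the 4 vehicle libraries, in CPM after TMM, on an axis that is logarithmic above 0.1 and linear below; the dashed line marks 1 CPM. Genes at 0 and genes above 100 CPM stand side by side among the metabolic, transcription factor and mesenchymal genes, as with HNF4A and PAX8, and the points of most genes above 10 CPM overlap.

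Markers of renal progenitors, scattered tubule cells and injured tubules were mostly present, with 17 of 22 (77.3%) detected, beside 59.3% of all features. CD24, a surface glycoprotein used with CD133 to define such cells, measured 679, 643, 656 and 640 CPM. Its partner CD133, the product of PROM1, had 16 counts in all and a level of 0.719, 0.745, 0.430 and 1.15 CPM, so of this pair only CD24 was detected. VCAM1, which marks one class of these cells, stood at 159, 146, 140 and 136 CPM. CD24 has near-identical copies in the genome, and how its reads were assigned was not given in the sources used here.

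Injury genes were read in every library. HAVCR1, the kidney injury molecule KIM-1, was at 361 ± 18.6 CPM, CLU (clusterin) at 1160 ± 83.7 CPM, the hyaluronan receptor CD44 at 467 ± 4.20 CPM and KRT19 at 438 ± 23.2 CPM. LCN2, another injury marker, was at 24.2 ± 2.52 CPM. SOX9, a factor that repairing tubule cells switch on, stayed close to the line at 1.29, 1.30, 1.29 and 1.15 CPM, and KRT7 was at 3.73 ± 1.01 CPM. ALDH1A1 and DLK1 had no count.

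Of 31 epithelial genes, 25 (80.6%) were detected, beside 59.3% of all features. The kidney cadherins CDH6 (440 ± 28.3 CPM) and CDH16 (50.8 ± 4.25 CPM), the adhesion molecule EPCAM (142 ± 11.5 CPM), the junction genes CLDN1 (777 ± 25.8 CPM) and F11R (264 ± 13.8 CPM), and the simple keratin KRT8 (124 ± 11.7 CPM) were all read. E-cadherin was low: CDH1 measured 9.64, 8.39, 8.39 and 8.99 CPM. N-cadherin, the classical cadherin that proximal tubules are known to use, was high in each library, with CDH2 at 229, 201, 201 and 198 CPM. GRHL2 and OVOL1, factors that hold epithelial identity, had no count.

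Mesenchymal genes were detected in 32 of 44 cases (72.7%), beside 59.3% of all features. Of the 20 whose RefSeq locus overlaps no other gene, 12 (60%) were detected, near that level. The summed level of the list, 52695 ± 2676 CPM, was mostly FN1. VIM (vimentin) measured 645, 663, 699 and 778 CPM. TGFBI (1028 ± 46.0 CPM), CYR61 (1804 ± 35.4 CPM), the receptor AXL (759 ± 26.0 CPM), SPARC (636 ± 29.0 CPM) and the proteoglycan LUM (268 ± 19.2 CPM) were also read. The fibroblast programme was not complete. COL1A2, which pairs with COL1A1 in type I collagen, had no count beside 15.8 ± 3.07 CPM for COL1A1, and COL3A1 was at 0.0826 CPM. PDGFRA, POSTN, PRRX1, CDH11 and TWIST2 had no count, and the smooth muscle genes ACTA2 and TAGLN were at 1.74 ± 0.458 and 2.49 ± 0.397 CPM. Among the factors that repress CDH1, ZEB1 stood at 32.4 ± 3.85 CPM, ZEB2 at 24.6 ± 1.41 CPM, TWIST1 at 11.2 ± 0.884 CPM, SNAI1 at 7.36 ± 1.19 CPM and SNAI2 at 4.97 ± 0.631 CPM.

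The miR-200 family, known to silence ZEB1 and ZEB2, was measured in the 4 vehicle small RNA libraries of the same series, with totals of 6664231 to 7888220 counts; these are other libraries, and their CPM are on a scale of their own, without TMM. The sequences of the family are printed because its members come from 2 genomic clusters and share 2 seeds. Capitals mark the seed, bases 2 to 8, and the sequences are those of RefSeq (GRCh38.p14). The first 3 lie on chromosome 1, at chr1:1167160-1167181, chr1:1167916-1167937 and chr1:1169055-1169076.
miR-200b-3p: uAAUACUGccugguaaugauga
miR-200a-3p: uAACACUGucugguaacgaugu
miR-429: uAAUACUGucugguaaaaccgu
miR-200c-3p: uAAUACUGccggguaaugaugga
miR-141-3p: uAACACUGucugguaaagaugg
The chromosome 1 cluster was abundant and the other cluster was not. miR-200b-3p measured 7973, 7370, 8449 and 7565 CPM, and miR-200a-3p measured 3699, 4051, 3666 and 4065. miR-200c-3p, which has the seed of miR-200b-3p, had 21.2, 19.5, 18.7 and 16.1 CPM, and miR-141-3p, with the seed of miR-200a-3p, had a mean of 1.59. ZEB1 and ZEB2 transcripts and an abundant miR-200 cluster were thus both present in vehicle cells.

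Both lists reported here of genes on which the papillomavirus proteins act were detected in full by mean level. The viral transcripts themselves are not among the features of the table. All 34 genes of the retinoblastoma and E2F list were detected, and so were all 19 of the telomerase and oncoprotein partner list. Asking for 1 CPM in every library left 34 and 18 of them. The share over all features was 59.3%. All 18 glycolysis and all 36 cytoskeleton genes were detected too, so full detection is not particular to genes on which the viral proteins act. CDKN2A, the locus of p16, which is known to accumulate where the retinoblastoma protein is out of action, measured 139, 149, 160 and 150 CPM; its counts combine all its transcripts. RB1 itself was at 31.1 ± 2.94 CPM.

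Genes of replication and division were read in each library. MKI67, the proliferation antigen, measured 712, 702, 677 and 690 CPM, and MCM7, a subunit of the replicative helicase, measured 405, 426, 450 and 438 CPM. TOP2A, the topoisomerase of dividing cells, was at 384 ± 18.1 CPM, and the clamp PCNA was at 89.4 ± 11.4 CPM. Of the E2F factors, E2F1 was at 55.9 ± 5.69 CPM and E2F2 at 7.58 CPM. Library 1 was the lowest for PCNA and MCM7.

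Many promoters of the list carry the letters that E2F factors are known to bind. The window searched runs from 250 bases before to 50 bases after the first RefSeq start of a gene, for TTTGGCGC or TTTCCCGC on both strands. Of 34 genes, 28 had a promoter in the table, and 12 of them held a match, beside 2.31% of all 27305 promoters. TTTGGCGC alone was in 0.659% of all promoters and TTTCCCGC alone in 1.66%. The list was drawn up from known E2F targets, so the count describes how it was chosen. Windows of 30 bases from 6 of these promoters are printed to show how the match sits in its surroundings, on the strand that reads as the motif, with the motif in capitals (RefSeq, GRCh38.p14).
E2F1, chr20:33686387-33686416: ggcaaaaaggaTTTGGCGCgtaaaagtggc
CDC6, chr17:40287875-40287904: ggccattcggaTTTGGCGCgagcgcggctg
MCM6, chr2:135876577-135876606: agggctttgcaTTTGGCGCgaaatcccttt
MCM3, chr6:52284898-52284927: cggatggtacgTTTCCCGCcaccgcggggc
PCNA, chr20:5126663-5126692: aacgcacgcctTTTCCCGCccctgacgctg
CDT1, chr16:88803743-88803772: ttcccgccaaaTTTCCCGCgggcgccctgg
These genes cover a wide range of reads. CDC6, which loads the helicase, was at 18.0 ± 2.65 CPM, its partner CDT1 at 73.3 ± 5.84 CPM, and the helicase subunits MCM6 and MCM3 at 108 ± 7.60 and 177 ± 17.3 CPM. A match is a string of letters and not evidence of a bound factor.

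Genes of cell cycle arrest, stress and death were read too: GDF15 was at 454 ± 14.4 CPM, the death receptor TNFRSF10B at 364 ± 31.4 CPM, CDKN1A (p21) at 72.3 ± 1.09 CPM and MDM2 at 45.0 ± 2.19 CPM. TERT, the catalytic subunit of telomerase, was at the detection line with 2.16, 0.932, 0.860 and 0.922 CPM. Its mean of 1.22 CPM was 0.905 CPM without library 1, so its place among the detected genes rests on that library. The accessory protein DKC1 (81.6 ± 5.20 CPM) and MYC (305 ± 5.96 CPM), an activator of TERT, were read evenly. Partners of the viral proteins were UBE3A, the ligase E6 recruits (58.6 ± 4.88 CPM), PTPN14 (436 ± 25.1 CPM), UBR4 (549 ± 21.3 CPM), SCRIB (122 ± 6.07 CPM) and DLG1 (204 ± 13.0 CPM).

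Markers of immune, endothelial, liver and glomerular cells were mostly under 1 CPM. Of 15 immune markers, 3 were detected, and PTPRC, CD3E, CD3D and MS4A1 had no count; the summed level of the list ran from 149 to 180 CPM over the libraries, most of it CD68 (152 CPM), a lysosomal protein of macrophages and other cells. The other 2 detected, CD14 at 7.62 CPM and CSF1R at 6.34 CPM, are monocyte and macrophage genes as well, and both were read in every library. Of the 10 immune markers whose RefSeq locus overlaps no other gene, 0 were detected. The part of overlapping loci in the 3 detected was not tested. Of 12 endothelial markers, 2 were detected (EHD3 at 34.2 and TIE1 at 3.58 CPM), with PECAM1, KDR and EMCN at 0 and a sum of 34.5 to 44.5 CPM. Hepatocyte markers gave 1 of 12, SERPINA1, the secreted antitrypsin, at 1022 ± 41.3 CPM; APOA1, APOB and TTR had no count, and the sum ran from 963 to 1051 CPM. Glomerular markers gave 3 of 8, led by SYNPO at 160 ± 4.42 CPM, with NPHS1 at 1 count and a sum of 174 to 185 CPM.

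Later nephron segments were checked in the same way. Of 14 thick limb and distal tubule markers 3 were detected, the highest EGF at 5.97 ± 1.47 CPM, and UMOD, PVALB and TRPV5 had no count; the sum was 11.5 to 15.1 CPM. Of 13 collecting duct markers 7 (53.8%) were detected, near the 59.3% of all features. Besides SCNN1A these lay between 1.30 and 4.39 CPM, among them ATP6V1B1 (4.39 CPM), a subunit of the proton pump, and HSD11B2 (2.71 CPM), which inactivates cortisol. SCNN1A, the alpha subunit of the epithelial sodium channel, measured 1259, 1206, 1181 and 1126 CPM, while its partner SCNN1B and the water channel AQP2 had no count and SCNN1G was at 0.284 CPM. The list summed to 1139 to 1277 CPM, and SCNN1A was nearly all of it.

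Squamous keratinocyte markers were checked because the medium is made for keratinocytes. Of 22, 6 were detected and 14 had no count, among them KRT5, KRT14, IVL and DSG3, and TP63 had 1 count; the KRT6 and KRT17 genes have near-identical copies, so their counts of 0 are uncertain. The list summed to 3753 to 4117 CPM, much of it from laminin chains of epithelial basement membranes, among them LAMB3 at 873 ± 24.4 CPM and LAMA3 at 505 ± 38.1 CPM.

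**Figure D3:**
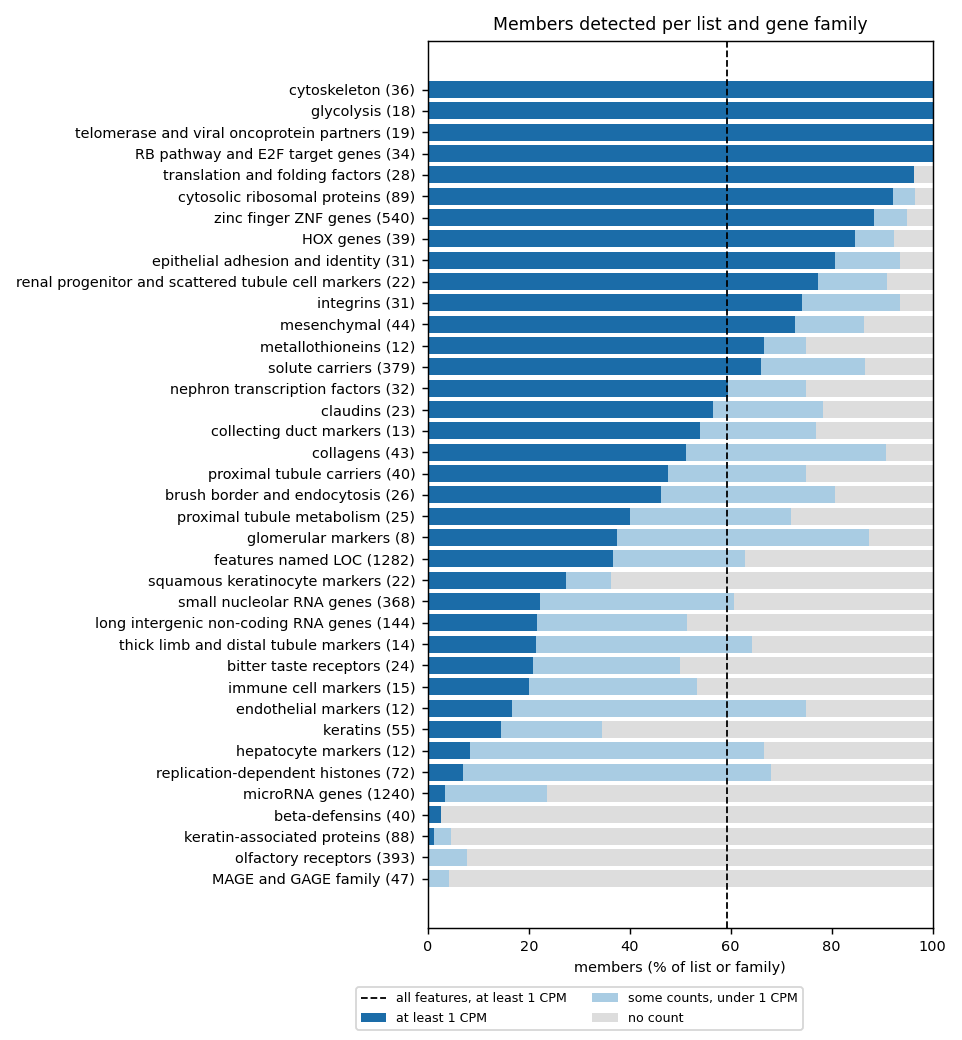
Share of the members of each list and gene family that were detected (mean of at least 1 CPM), had some counts under 1 CPM, or had no count in the vehicle libraries, with the number of members in brackets. The dashed line marks the 59.3% of all features that were detected. Lists of replication, glycolysis and cytoskeleton genes reach 100%. Olfactory receptors and the MAGE and GAGE genes taken by symbol lie near 0. The family named microRNA genes also takes in microRNA host genes.

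General cell functions were complete or nearly so. All 18 glycolysis and all 36 cytoskeleton genes were detected, 27 of 28 translation and folding genes, and 82 of 89 cytosolic ribosomal protein genes. The single missing translation gene was EIF4A1, the helicase of translation initiation, which had no count in any library. Its locus in RefSeq overlaps the read-through gene SENP3-EIF4A1, which had 8 counts in all; how the counting treated such overlaps was not given in the sources used here. RPL21, a ribosomal protein gene with near-identical copies in the genome, was at 0.0466 CPM. A count of 0 in this table is therefore not by itself evidence that a gene is silent. When list genes whose RefSeq locus overlaps another gene were set aside, 60% of the rest were detected in place of 66.5% of all list genes, and for the proximal tubule lists 42.6% in place of 45.1%.

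Several families had few members detected. Olfactory receptors had 1 of 393 genes detected and 363 without a count, keratin-associated proteins 1 of 88, and beta-defensins 1 of 40, the exception being DEFB1 at 42.5 CPM, the defensin that kidney epithelium is known to make. None of the 47 MAGE and GAGE genes taken by the symbol rule was detected, the highest mean being 0.0932 CPM. That rule may leave out other MAGE genes. Of 55 keratins 8 were detected, although the family summed to 771 CPM, led by KRT19. Replication-dependent histones, whose messages lack a poly(A) tail, had 5 of 72 detected. Zinc finger genes named ZNF were the reverse, with 477 of 540 (88.3%) detected, beside 59.3% of all features. Only 14 of these ZNF genes reached 100 CPM, beside 2197 of 23364 features. HOX genes had 33 of 39 (84.6%) detected.

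Host transcripts of microRNAs gave a further readout, from which 4 examples were picked after their values were seen. MIR205HG, the host of miR-205, was read at 125 ± 8.62 CPM and miR-205-5p at 8956, 11670, 9172 and 8293 CPM in the small RNA libraries. MIR210HG was at 51.2 ± 4.96 CPM and miR-210-3p, known as a hypoxia-responsive microRNA, at 885 ± 90.9 CPM. Host and microRNA did not follow 1 order: MIR600HG was at 24.8 ± 2.66 CPM and miR-600 at 0.0746 CPM, whereas MIR155HG was at 7.36 ± 0.333 CPM and miR-155-5p at 6506 ± 808 CPM. The 3 mature sequences with high levels are given with the seed in capitals (RefSeq, GRCh38.p14), and no seed is shared among them.
miR-205-5p, chr1:209432166-209432187: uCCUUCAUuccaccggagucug
miR-155-5p, chr21:25573983-25574006: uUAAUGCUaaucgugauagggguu
miR-210-3p, chr11:568112-568133: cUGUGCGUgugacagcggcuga

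The authors' list of AGO2 clusters in vehicle cells pools 2 libraries from cells given vehicle for 24 h in place of 48 h. These are not the libraries that gave the CPM. The clusters are themselves found from reads of RNA, so abundant or long transcripts can yield them more readily. The part of this in the shares below was not tested. AGO2 is the protein that carries microRNAs to their targets, mostly in 3' UTRs. Of 56985 clusters, 748 were annotated to a 3' UTR, and 704 of them matched a gene of the table, 665 genes in all. The share of genes with such a cluster was 0.864% where there was no count (49 of 5671 genes), 1.72% under 1 CPM, 2.06% from 1 to 10 CPM, 4.01% from 10 to 100 CPM, 6.78% from 100 to 1000 CPM and 12.2% from 1000 CPM up (9 of 74 genes). The 95% Wilson intervals were 0.654 to 1.14% for the lowest class and 6.53 to 21.5% for the highest. They take the genes of a class as independent draws, and measure neither error in counting reads nor spread between libraries. SCD had 4 clusters, and AGRN, FLNA, LAMC1 and CYR61 had 1 each. With clusters of any annotation, of which 46.9% were intergenic and 42.4% intronic and so lay outside mature transcripts, the shares were 23.5% without a count, 52.3% from 10 to 100 CPM and 77.0% at 1000 CPM or more, in the same order.

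**Figure D4:**
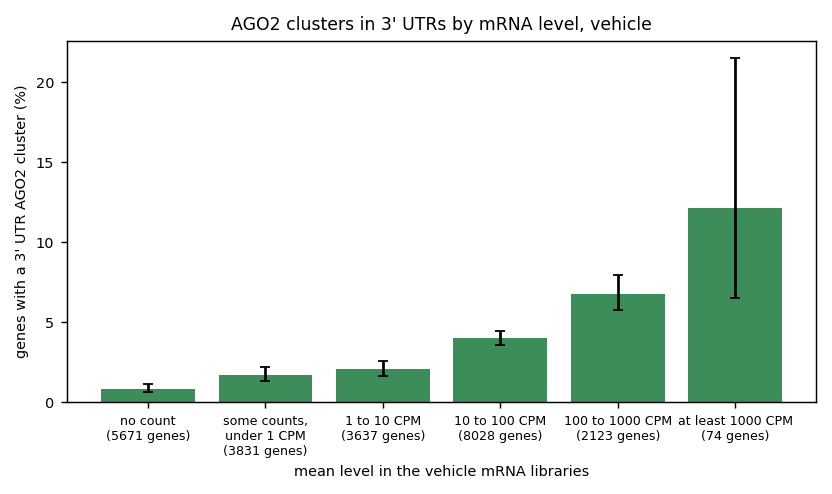
Percent of genes with at least 1 AGO2 cluster in a 3' UTR by mean mRNA level in vehicle cells, with 95% Wilson intervals as error bars and the number of genes under each bar. The share runs from 0.864% of genes with no count to 12.2% of genes at 1000 CPM or more, where only 74 genes give a wide interval.

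One gene differed between libraries far more than the rest. Over 10409 genes with a mean of at least 50 counts, the median of edgeR's coefficient of variation per gene was 5.33%. The highest was that of HLA-G, a non-classical HLA gene, at 22.5%. This estimate leaves out counting noise and is drawn toward the common value of all genes. HLA-G measured 6.04, 36.5, 5.16 and 4.15 CPM, so library 2 stood alone, and its mean of 13.0 CPM was 5.12 CPM without that library. The plain SD of these HLA-G levels was 121% of their mean. HLA genes share long stretches of sequence, and the part of read assignment in this was not tested. By edgeR's estimate the next genes were much closer to the median, at 9.04% for LOC100133957, 8.43% for SLC27A2 and 8.27% for FANCM. Their plain SD was 39.5%, 30.4% and 30.9% of the mean. SLC27A2, a fatty acid transporter of the proximal tubule, measured 12.9, 6.52, 7.74 and 9.91 CPM, and FANCM, a DNA repair helicase, measured 16.4, 10.1, 8.60 and 15.7 CPM. In both, libraries 1 and 4 were above libraries 2 and 3.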

How the data were processed

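The authors deposited whole-number read counts per gene symbol and per mature miRNA, and a list of AGO2 clusters with a peak score, of no stated unit or caller. The submitters' processing notes list HTSeq, TopHat, Bowtie, DESeq2, cutadapt, CASAVA 1.8.2 and build hg19, without roles or settings; for counting by strand, the sources used here give nothing. Scores served only to split the authors' deposited list at its median.

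Groups came from the sample labels. The 4 vehicle mRNA columns were scaled with edgeR 4.0.16 (TMM, factors 0.987 to 1.01) in R 4.3.3; DESeq2 1.42.0 was used as an alternative. Spread was estimated with an intercept only after edgeR's expression filter, a step tested on simulated data. Totals of 4289120 to 7041604 counts put the limit of 3 counts at 0.426 to 0.699 CPM per library. These limits cover counting error only, and the Wilson intervals take genes as independent draws. The 28 features that carry a calendar date stayed in the totals and were never named.

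The naming rule took the 25 most-read genes, the 4 most-read members of each list, and members under 1 CPM by name. It also took a fixed set of tumour suppressor, tubule and progenitor genes, and the 5 most variable genes of at least 50 mean counts. Not every gene that the rule took is printed, among them PDZK1IP1, CTNNB1 and ALS2CR8. Further members were picked as examples after their values were seen. Some genes and 1 list are not reported here, though they enter the totals and list counts. Of the 20 lists, those reported were brush border, proximal tubule carriers, proximal tubule metabolism, nephron transcription factors, renal progenitor, epithelial, mesenchymal, retinoblastoma and E2F, telomerase and viral partners, glomerular, thick limb and distal, collecting duct, endothelial, immune, hepatocyte, squamous, glycolysis, cytoskeleton, and translation and folding, beside 19 families defined by symbol. Members and lists were chosen with earlier results of these data known. The reading of miRNA hosts and of overlapping RefSeq loci was added after seeing the data. Promoter features by level class were planned, but 50.2% to 81.5% of genes per class had a promoter in the table, under the 80% minimum in 4 of 6 classes, so that comparison is void.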

Additional observations from a re-analysis of the deposited data

Results flagged for a closer look

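In each of 113 named genes the 4 vehicle libraries were searched for a single library whose gap to its nearest neighbour was large for the range, at a level at which chance gives about 1 gene in 20; 9 genes met it. LRP2 had 1 count in all, so it was bound to meet the rule. HLA-G was named because it varied most, which favours such a gap. These 2 are not to be read against that share. SLC22A6, SLC22A8, HNF4A and PAX2 were among the genes searched but had no count, so they could not meet it. Library 1 was high for UBR4 (581 CPM, the others 536 to 542), HSP90B1 (2160 CPM, the others 1903 to 1928), CDH2 (229 CPM, the others 198 to 201) and TERT (2.16 CPM, the others 0.860 to 0.932), and it held the single count of LRP2 (0.144 CPM, the others at 0). Library 4 was low for CLU (1040 CPM, the others 1192 to 1213). Library 2 was high for HLA-G (36.5 CPM, the others 4.15 to 6.04) and low for SLC12A3, the thiazide-sensitive cotransporter (2.42 CPM, the others 2.73 to 2.80). Library 3 was low for the endothelial factor ERG (0.215 CPM, the others 0.863 to 0.932). ERG, LRP2, SLC12A3 and TERT rest on few reads.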

How the results depend on the processing

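The count of detected genes ran from 11698 (threshold of 5 CPM) to 14645 (0.5 CPM), with 13327 at 1 CPM or more in every library and 13849 to 13883 with a library left out. Genes with no count ran from 5898 to 6056 with a library left out, and the 10 most-read genes held 7.59% to 7.85% of counts. Proximal tubule genes detected ran from 33 (5 CPM) to 50 (0.5 CPM) of 91, and from 38 to 42 with a library left out. At 5 CPM, detected members were 1 for thick limb and distal, 1 for collecting duct, 1 for endothelial markers, 0 olfactory receptors, 0 keratin-associated proteins, 1 bitter taste receptor (5 at 1 CPM), 0 histones, 14 microRNA genes (41 at 1 CPM), 15 small nucleolar RNA genes (82 at 1 CPM), 15 LINC genes (31 at 1 CPM), 254 LOC features (471 at 1 CPM), 6 claudins (13 at 1 CPM) and 5 metallothioneins (8 at 1 CPM). At 0.5 CPM they were 5 immune markers, 3 hepatocyte markers and 9 histones. The family of microRNA genes was taken by symbol and includes host genes, its highest member being MIR205HG at 125 CPM. Asking for 1 CPM in every library left 2 taste receptors and 3 histones; leaving out 1 library left 3 to 5 taste receptors and 3 to 5 histones. The 60% of list genes detected without overlapping loci was an alternative chosen after seeing the data. The spread was 4.51% to 6.49% with a library left out and 9.24% as DESeq2's median. AGO2 shares with clusters of any annotation were 23.5%, 52.3% and 77.0% (no count, 10 to 100 CPM, 1000 CPM up), and with the clusters above the median score 0.335%, 2.11% and 6.76%. Leaving out a library took genes near 1 CPM across the line, among them TERT, SLC34A1, TMEM27, SLC2A9, CLDN10, KLF15, PDGFRB, CNN1 and ALDOC downwards and DPEP1, SLC34A3, SLC6A13, GATA3 and CLDN14 upwards. Depth limits statements on genes under about 1 CPM. Levels per length and CpG content were planned and not run, since no transcript lengths were used here and the promoter match was too thin. No paired analysis was possible because only 1 group was described.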

Other observations

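Which library read a gene highest was not spread evenly over gene groups. Of 74 cytosolic ribosomal protein genes at 10 CPM or more, library 4 was the highest in 65 and library 1 the lowest in 61, and the family summed to 17858, 18949, 20149 and 21863 CPM in libraries 1 to 4. Of 17 glycolysis genes library 4 was the highest in 12 and library 1 the lowest in 14, and of 35 cytoskeleton genes the counts were 27 and 27. GAPDH showed this at 1774, 1984, 2139 and 2319 CPM, and ACTB at 1563, 1715, 1834 and 1969 CPM. Of the 30 retinoblastoma and E2F genes at 10 CPM or more, library 4 was the highest in 16 and library 1 the lowest in 19.

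Collagens, integrins and solute carriers lay the other way, as did the most-read genes. Library 1 was the highest for 11 of 17 collagens, 10 of 17 integrins and 80 of 181 solute carriers, and library 4 was the lowest for 9, 11 and 105 of them. Of the 2197 genes of at least 100 CPM library 1 was the highest in 845 and library 4 the lowest in 950, and of the 1000 most-read genes the counts were 436 and 496, so abundant genes as a whole leaned this way. Over all 13866 detected genes library 1 was the highest in 3759 and library 4 in 4038, and library 1 was the lowest in 3541 and library 4 in 4119. ITGB1, the beta chain shared by many integrins, measured 1583, 1403, 1370 and 1317 CPM. Library 1 was also the deepest and library 4 the shallowest, and the part of depth in these values was not tested. The replicate numbers have no order in the design. Metallothioneins, small metal-binding proteins, had 8 of 12 (66.7%) detected, near the 59.3% of all features. MT2A led them at 524 CPM.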
